A study of Mus musculus with 8 samples.

Results

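Mt1 and Mt2, the metallothionein genes that are expressed in most mouse tissues, and Slc30a1, which encodes the zinc exporter ZnT1, were followed by single-cell RNA-seq in CD45+ cells sorted out of B16-OVA melanoma tumors. They are 3 of the 27998 genes counted, chosen by symbol, and 18811 of those genes had at least 1 UMI (a molecule counted once by its barcode). B16-OVA tumors, a melanoma line that expresses ovalbumin, grew in C57BL/6 mice, which received adoptive cell transfer (ACT) without lymphodepletion of OT1 CD8+ T cells, whose receptor recognises an ovalbumin peptide. The groups were untransduced OT1 cells at days 5 and 12, OT1 cells that secrete PD1d and IL-2v at day 12, OT1 cells that secrete PD1d and IL-33 at day 12, the PD1d/IL-2v/IL-33 product on days 5, 12 and 26, and tumors with no treatment (non-treated), which carry the label day 5. In the study, days are counted from the first cell transfer into mice that already bore tumors, and a further transfer followed before day 5. PD1d is a secreted PD-1 ectodomain fused to a human Fc region, IL-2v is an interleukin-2 variant that does not bind CD25, and PD1d/IL-2v/IL-33 ACT was an equal mix of PD1d/IL-2v and PD1d/IL-33 cells, so no single cell carried all 3 factors. Each group was 1 library, and CD8+ cells had been enriched in the sort. For days 5 and 12 after transfer, the study's methods state that the tumors of 5 mice per condition were pooled. The methods do not describe the non-treated or the day 26 group, and transferred and host CD8 T cells cannot be told apart here.

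The 8 libraries held 1387032 to 24917112 UMIs, and 12821 of 15700 barcodes passed the cell filter. Gates on raw marker UMIs took 8178 of these cells, namely 4323 CD8 T, 1127 CD4 T, 1270 NK and 1458 myeloid cells, and 4643 cells stayed in no gate. CD8 T cells were split into 2057 with and 2266 without a Pdcd1 UMI (Pdcd1 encodes the inhibitory receptor PD-1). The gates are not cell types, and markers outside the gate rule separated some of them. Klre1 lay between 463 and 825 UMIs per 1000000 UMIs (CPM) in every NK gate and at or below 166 in the others, and C1qa between 66.3 and 245 in myeloid cells and at or below 3.90 elsewhere. Klrb1c and Eomes (NK) and Icos and Cd5 (CD4 T) also lay above all other gates, whereas Fcer1g and Tyrobp of myeloid cells and Cd2 of CD4 T cells overlapped with other gates. None of the 3 markers taken for CD8 T cells set them apart, since Nkg7 (1804 to 2883 CPM), Cd2 (209 to 458) and Cd5 (56.8 to 159) reached higher levels in other gates (up to 3280, 1031 and 491), so this gate rests on its CD3 and CD8 genes. The non-treated library and the untransduced library of day 12 were the smallest, with 400 barcodes each and 68 and 42 CD8 T cells. 143 barcode sequences occurred in more than 1 library, no doublet caller was run, and values of a library carry exact 95% Poisson intervals, which cover counting error only.

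Metallothioneins are small cysteine-rich proteins that bind zinc and copper, buffer their free level in the cell and scavenge oxidants. Their genes are induced by zinc through the transcription factor MTF-1 (gene Mtf1), which binds metal response elements in their promoters, and also by glucocorticoids and oxidative stress, and Slc30a1 is a further MTF-1 target that lowers zinc in the cytosol. In T cells of tumors, metallothioneins are known from work on dysfunctional CD8+ T cells. Mt3 and Mt4 are members of the same family that are best known from brain and squamous epithelium.

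In GRCm38, Mt2 (ENSMUSG00000031762) lies at chr8:94172618-94173567 and Mt1 (ENSMUSG00000031765) at chr8:94178883-94180327, both protein-coding and 5315 bases apart, whereas Slc30a1 (ENSMUSG00000037434) lies at chr1:191906697-191913248. The 250 bases before the start that RefSeq annotates (GRCm38.p6, plus strand, 5′ to 3′) are shown because these genes share a regulator. The windows are chr8:94178839-94179088 for Mt1, chr8:94172368-94172617 for Mt2 and chr1:191906531-191906780 for Slc30a1, and capitals mark every match to the metal response element core, TGCACNC or TGCGCNC, on either strand.
Mt1: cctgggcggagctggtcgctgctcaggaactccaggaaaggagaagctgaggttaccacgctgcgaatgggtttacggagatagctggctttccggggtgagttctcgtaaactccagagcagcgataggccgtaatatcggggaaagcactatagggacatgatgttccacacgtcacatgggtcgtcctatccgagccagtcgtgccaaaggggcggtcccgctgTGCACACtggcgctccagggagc
Mt2: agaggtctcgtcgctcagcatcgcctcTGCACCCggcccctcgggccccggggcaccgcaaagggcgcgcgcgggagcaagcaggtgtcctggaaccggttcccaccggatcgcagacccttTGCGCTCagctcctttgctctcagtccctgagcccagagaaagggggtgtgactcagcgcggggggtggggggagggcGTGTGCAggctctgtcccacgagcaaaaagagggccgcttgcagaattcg
Slc30a1: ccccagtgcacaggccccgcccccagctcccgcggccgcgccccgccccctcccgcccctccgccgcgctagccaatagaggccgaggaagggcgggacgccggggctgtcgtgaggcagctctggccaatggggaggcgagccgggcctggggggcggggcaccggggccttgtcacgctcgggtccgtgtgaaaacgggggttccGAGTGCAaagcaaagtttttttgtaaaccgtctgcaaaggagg
The annotated spans of Mt1 and Slc30a1 begin inside these windows, so the start used is 1 of several for both. Mt2 held 3 cores, at 223, 128 and 50 bases before the start, and Mt1 and Slc30a1 held 1 each, at 23 and 43 bases. With the 50 bases after the start included, Mt1 held 3, Mt2 4 and Slc30a1 2, where 25.7% of promoters held at least 1 and 1.97% at least 3. Of 32851 annotated promoters, 21.4% held at least 1 core in the 250 bases before the start and 1.26% held 3 or more. Within these 250 bases, a core of the antioxidant response element, TGACNNNGC, was found once in Mt2 and once in Slc30a1 and not in Mt1. It was found in 10.2% of all promoters. The bases after the start were not searched for it, so its absence from Mt1 holds for this window and this start only. These matches describe letters and not binding.

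In CD8 T cells, Mt1 was highest after PD1d/IL-2v/IL-33 on days 12 and 5 and lowest after PD1d/IL-2v ACT and at day 26. Its level was 262 CPM (248 to 276) after PD1d/IL-2v/IL-33 on day 12, 184 CPM (170 to 199) at day 5 and 34.5 CPM (31.2 to 37.9) at day 26. Untransduced ACT gave 125 CPM (114 to 137) at day 5 and 120 CPM (82.5 to 168) at day 12. PD1d/IL-33 ACT gave 61.7 CPM (50.4 to 74.8), non-treated tumors 52.1 CPM (31.8 to 80.4) and PD1d/IL-2v ACT 32.9 CPM (27.9 to 38.5). In the order of these levels, the intervals of neighbours overlapped for the 2 untransduced libraries, for PD1d/IL-33 ACT and non-treated tumors, for non-treated tumors and day 26, and for day 26 and PD1d/IL-2v ACT.

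Mt2, the gene next to Mt1, had fewer UMIs than Mt1 in every library and was also highest after PD1d/IL-2v/IL-33 on day 12. Its level was 53.6 CPM (47.7 to 60.01) after PD1d/IL-2v/IL-33 on day 12 and 39.0 CPM (32.7 to 46.2) at day 5. Untransduced ACT gave 21.7 CPM (17.4 to 26.8) at day 5 and 39.9 CPM (19.9 to 71.5) at day 12, the latter from 11 UMIs of which 10 came from 1 cell. PD1d/IL-33 ACT, day 26 and PD1d/IL-2v ACT followed with 8.91, 7.57 and 3.21 CPM, and non-treated tumors had no Mt2 UMI, with 7.81 CPM as the limit that a count of 0 allows (3 counts).

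Slc30a1 was rare in CD8 T cells, at 9.90 CPM (6.85 to 13.8) and 7.01 CPM (4.99 to 9.59) after PD1d/IL-2v/IL-33 on days 5 and 12. It lay at 5.06 CPM in the untransduced library of day 5 and between 2.71 and 2.97 CPM in the PD1d/IL-2v, PD1d/IL-33 and day 26 libraries. The remaining pair, non-treated tumors and untransduced ACT at day 12, had 0 UMIs, which allows up to 7.81 and 10.9 CPM. Most of these intervals overlap, so an order among the low libraries was not detectable at this depth.

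**Figure D1:**
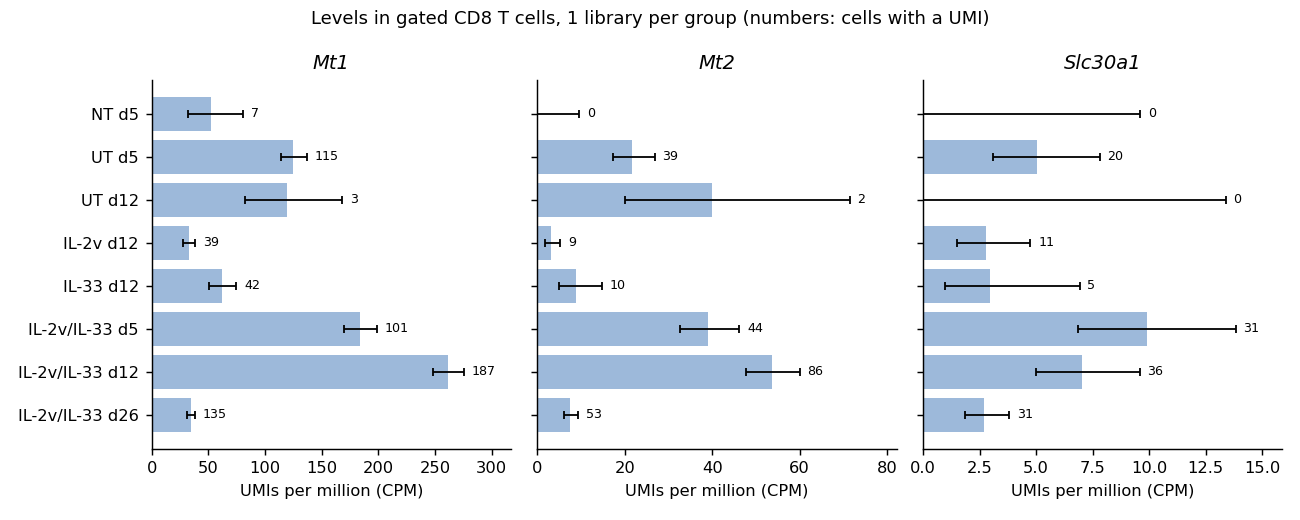
Levels of Mt1, Mt2 and Slc30a1 in gated CD8 T cells, in UMIs per 1000000 UMIs (horizontal axis), for the 8 libraries (rows; NT, non-treated; UT, untransduced; d, day). Bars are the level of 1 library, lines its exact 95% Poisson interval, and the numbers count cells with a UMI. Mt1 reached 262 CPM after PD1d/IL-2v/IL-33 on day 12, from 187 cells, while the 120 CPM of untransduced ACT at day 12 came from 3 cells.

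The UMIs were held by few cells. Of all 4323 CD8 T cells, 84.7% had no UMI of Mt1 or Mt2, and the 99 cells with 10 or more (2.29%) held 63.4% of the UMIs. After PD1d/IL-2v/IL-33 on day 12, 187 of 607 CD8 T cells had an Mt1 UMI and 46 had 10 or more of both genes together, with a maximum of 150. At day 26, 135 of 1976 cells had an Mt1 UMI and 7 had 10 or more. The untransduced library of day 12 stood apart, since 3 of its 42 cells had an Mt1 UMI and 1 cell held 87.9% of the UMIs. In non-treated tumors 7 of 68 cells had one and 1 cell held 65.0%.

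Depth differed between libraries, so each cell was also thinned to 2000 UMIs. The share of CD8 T cells with an Mt1 UMI was then 14.7% after PD1d/IL-2v/IL-33 on day 12 (30.8% unthinned), 11.6% at day 5 (25%) and 2.68% at day 26 (6.83%). It was 12.0% (26.6%) and 4.76% (7.14%) for untransduced ACT at days 5 and 12, 6.12% (14.3%) for PD1d/IL-33 ACT, 4.41% (10.3%) for non-treated tumors and 3.41% (7.82%) for PD1d/IL-2v ACT. As point values, thinned shares kept both PD1d/IL-2v/IL-33 libraries of days 5 and 12 and the untransduced library of day 5 above the others. The untransduced library of day 12 fell among the low ones. Its interval (0.58 to 16.2) and that of non-treated tumors (0.92 to 12.4) overlapped with those of the higher libraries, so their place was not resolved. That of PD1d/IL-33 ACT (3.67 to 9.50) overlapped with untransduced ACT (9.10 to 15.4) and PD1d/IL-2v/IL-33 (8.67 to 15.2) at day 5. The part of free RNA in these shares was not tested. Among NK cells, a class low in Mt1, 0% to 5.26% had an Mt1 UMI without thinning in 7 libraries. In that of PD1d/IL-2v ACT, 3 of 320 NK cells had an Mt1 UMI (0.938%, at a median depth of 6594 UMIs), against 7.82% of its CD8 T cells (median 8122). After PD1d/IL-2v/IL-33 on day 12, 28 of 132 NK cells (21.2%, median 7129) had one against 30.8% of CD8 T cells (median 7710), and the thinned shares of 11.4% (6.50 to 18.0) and 14.7% (11.9 to 17.7) overlapped.

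The comparisons of the design are given as log2 ratios after adding 10 CPM to both libraries. With 1 library a group there is no replicate check and no test, and a gene was counted as past the fold when it changed at least 2-fold. At day 12, the PD1d/IL-2v/IL-33 library exceeded that of PD1d/IL-2v ACT in Mt1 by 2.66 (2.47 to 2.85), the rank of 4 among 8711 genes, of which 2.30% were past 2-fold in either direction. Mt2 was higher by 2.27 (2.01 to 2.48), with rank 7, and Slc30a1 by 0.41 (0.14 to 0.67). Against PD1d/IL-33 ACT, where 1.72% of 7913 genes were past 2-fold, Mt1 was higher by 1.92 (1.67 to 2.18, rank 18) and Mt2 by 1.75 (1.34 to 2.11, rank 26). The combination therefore exceeded both single-cytokine libraries in both metallothioneins, and Mt1 kept its direction in every alternative tried for these 2 ratios, the lowest being 0.94 against PD1d/IL-33 ACT under the cell filter that the study used for its later experiment. PD1d/IL-33 ACT exceeded PD1d/IL-2v ACT by 0.74 in Mt1 (0.44 to 1.04), with 3.11% of genes past 2-fold. These libraries do not share a sequencing run throughout: the PD1d/IL-2v and the PD1d/IL-33 library carry 1 run identifier and the combination of day 12 shares another with untransduced ACT. Run and cytokine therefore cannot be told apart where the combination is compared with either single-cytokine library. The same holds where a single-cytokine library is compared with the untransduced library of the other run. Run identifiers of the day 26 and non-treated libraries are not given here, so whether their ratios cross runs is not stated. The difference of 0.74 between the single-cytokine libraries does not cross run identifiers.

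Against untransduced ACT at day 12, which rests on 3 cells, the ratios of Mt1 were 1.07 (0.60 to 1.56) for PD1d/IL-2v/IL-33 ACT, −1.60 (−2.09 to −1.08) for PD1d/IL-2v ACT and −0.86 (−1.38 to −0.31) for PD1d/IL-33 ACT. The backgrounds past 2-fold were 7.97%, 4.92% and 5.58%. Without the top Mt1 and Mt2 cell of each library these became 3.24, 0.48 and 1.24, so the direction of both single-cytokine comparisons rested on 1 cell. At day 5, the PD1d/IL-2v/IL-33 library exceeded untransduced ACT by 0.52 (0.36 to 0.68) in Mt1, 0.63 (0.33 to 0.92) in Mt2 and 0.40 (0.06 to 0.73) in Slc30a1, with 3.41% of genes past 2-fold and none of the 3 among them. Without the 5% of cells with most UMIs the ratio of Mt1 was 0.09, and under the later cell filter it turned to −0.0809 (−0.39 to 0.22). The thinned shares of cells with Mt1 were 11.6% and 12.0%, so a direction at day 5 was not stable.

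Across time, Mt1 after PD1d/IL-2v/IL-33 ACT was 0.49 (0.36 to 0.62) higher at day 12 than at day 5, where 0.711% of genes were past 2-fold, and the log2 ratio of day 26 to day 12 was −2.61 (−2.74 to −2.48), where 3.37% were. Mt2 had a ratio of −1.86 (−2.04 to −1.66) between these days and Slc30a1 of −0.42 (−0.65 to −0.20). Counted from the highest ratio, Mt1 ranked 9576 of 9587 genes there and Mt2 9552. Untransduced ACT exceeded non-treated tumors at day 5 by 1.12 (0.57 to 1.70) in Mt1, with 2.64% of genes past 2-fold, and the ratio of Mt1 between its days 12 and 5 was −0.06 (−0.56 to 0.42), with 7.60% past it. Both values rest on single cells of the small libraries. Without the top Mt1 and Mt2 cell of each library they were 2.13 and −2.27, and without the 5% of cells with most UMIs 2.21 and −2.30. The ratio of days 12 to 5 was also −1.97 under the later cell filter, −1.11 with every cell weighted equally and −0.75 after thinning.

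Within every library, CD8 T cells with a Pdcd1 UMI had more Mt1 than those without. The levels without and with Pdcd1 were 64.9 and 387 CPM after PD1d/IL-2v/IL-33 on day 12, 51.0 and 279 CPM at day 5 and 6.75 and 57.2 CPM at day 26. They were 44.8 and 154 CPM for untransduced ACT at day 5, 39.9 and 84.1 CPM for PD1d/IL-33 ACT, 12.7 and 64.2 CPM for PD1d/IL-2v ACT and 9.61 and 67.8 CPM for non-treated tumors. In the untransduced library of day 12 all 33 Mt1 UMIs were in the 15 cells with Pdcd1 and none in the 27 without. PD1d/IL-2v/IL-33 on day 12 was highest on both sides, and PD1d/IL-2v/IL-33 on day 26 lowest among cells with Pdcd1.

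With the 8 libraries as pairs in edgeR's quasi-likelihood test, Mt1 was higher in cells with Pdcd1 by 2.34 ± 0.19 on the log2 scale (SE implied by the F statistic, adjusted p = 4.56e-07, higher in 8 of 8 libraries), with mean levels of 174 and 28.7 CPM. Mt2 was higher by 2.30 ± 0.23 (adjusted p = 4.80e-06, 7 of 8 libraries, the non-treated library having no UMI on either side). Of 8254 genes tested, 10.9% were called higher with Pdcd1, and Slc30a1 did not pass the low-count filter, with 80 UMIs in cells with Pdcd1 and 64 in cells without. Cells with Pdcd1 were deeper in 7 of 8 libraries, for example a median of 9238 against 5333 UMIs in the untransduced library of day 5. When Pdcd1 was instead detected after thinning, Mt1 was higher by 0.78 (adjusted p = 0.0416) and Mt2 by 0.57 (adjusted p = 0.133), so the size of both differences, and the call for Mt2, moved with how Pdcd1 was detected. PD1d is itself made from PD-1, and whether its transcript adds to the Pdcd1 count was not tested.

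**Figure D2:**
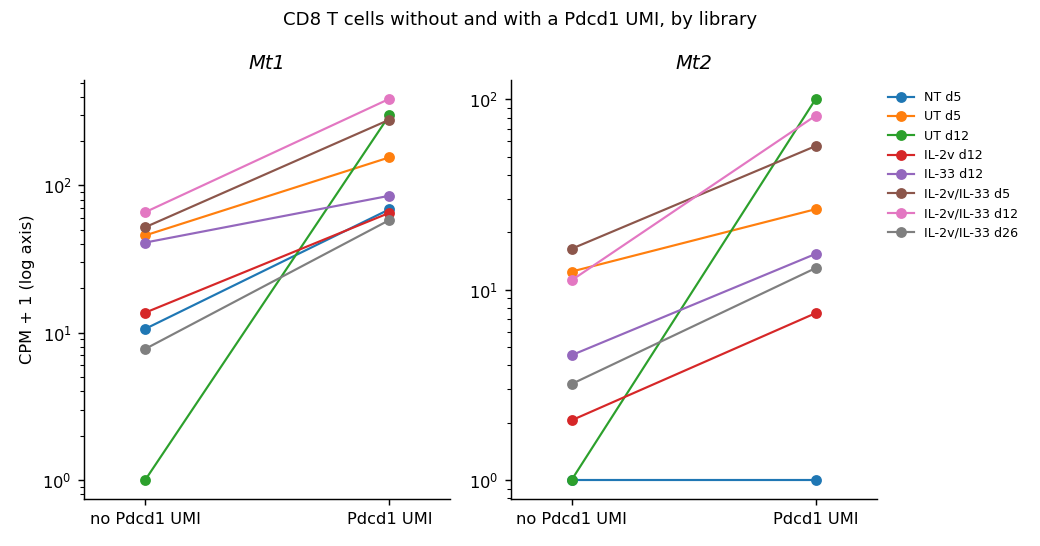
Mt1 and Mt2 in CD8 T cells without and with a Pdcd1 UMI, in UMIs per 1000000 UMIs plus 1 on a log axis, with 1 line per library (NT, non-treated; UT, untransduced; d, day). For Mt1 all 8 lines rise to the cells with Pdcd1, and for Mt2 7 rise while non-treated tumors stay at 0 UMIs on both sides.

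The other genes of metal handling moved less between these cells. Mt3 was higher with Pdcd1 by 0.87 ± 0.22 (adjusted p = 0.00858), Mt4 had no UMI in any gate, and Mtf1, the zinc sensor, was measured at 0.27 ± 0.16 (adjusted p = 0.262). In the copper list 2 of 4 tested genes were higher, the copper chaperone Cox17 by 0.84 and the importer Slc31a1 by 0.73, and none of 4 zinc exporters and 8 zinc importers was called by edgeR (1 of each had an unadjusted p under 0.05). In the hypoxia list 3 of 8 were higher, among them Bnip3 by 1.01. The glucocorticoid list gave 1 higher (Ddit4, 0.76) and 2 lower (Sgk1, −0.95, and Tsc22d3, −0.37), and the list of NRF2 targets 1 of 5 higher (Prdx1, 0.25). Lists of cell state moved more, since 10 of 10 cell cycle genes were higher and 5 of 6 naive and memory genes were lower. Of 8 inhibitory receptors 7 were higher, but these include Pdcd1, which the split used and which is not read. Over all 8254 genes tested, 896 were higher and 888 lower. Among cytotoxic genes 3 of 6 were higher and Gzma was lower, and of the NK markers Klrb1c (−1.54) and Eomes (−0.71) were lower. Medians over all 8254 genes lay at −0.02.

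Across classes, Mt1 was highest in myeloid cells, then CD4 T, CD8 T and NK cells. The median over the 8 libraries was 342 CPM in myeloid cells (194 to 655), 205 CPM in CD4 T cells (38 to 576), 90.8 CPM in CD8 T cells (32.9 to 262) and 1.07 CPM in NK cells (0 to 241). Mt2 had another order, with medians of 23.2 CPM in CD4 T, 15.3 CPM in CD8 T, 11.3 CPM in myeloid and 0 CPM in NK cells. Slc30a1 had its highest median, 18.8 CPM, in myeloid cells (6.91 to 36.7), against 2.87 CPM in CD8 T, 3.37 CPM in CD4 T and 2.2 CPM in NK cells.

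**Figure D3:**
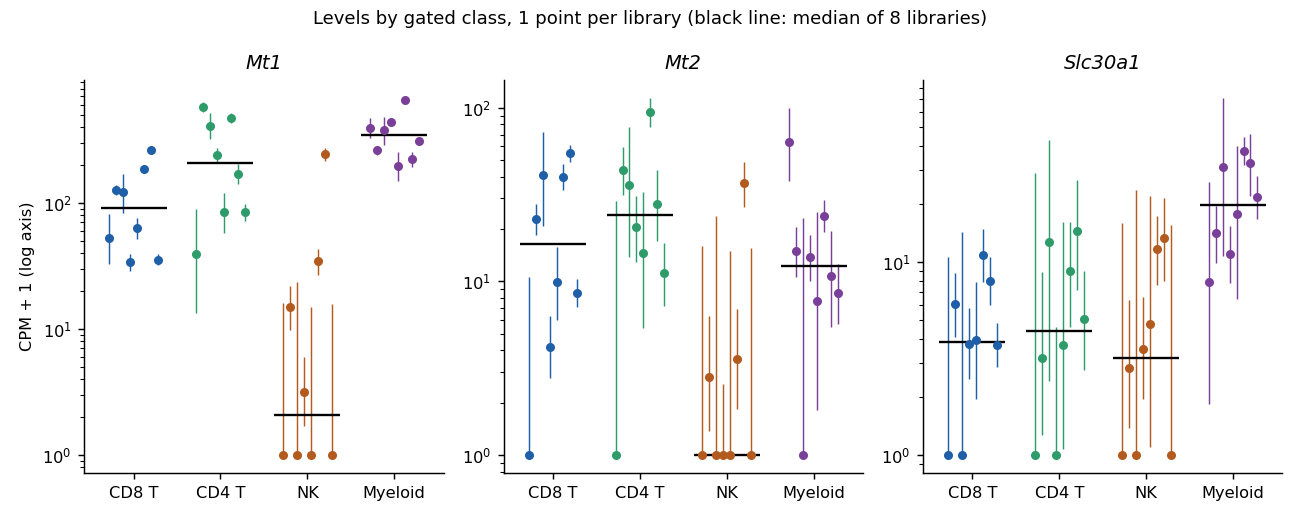
Levels of Mt1, Mt2 and Slc30a1 by gated class, in UMIs per 1000000 UMIs plus 1 on a log axis, with 1 point per library, its exact 95% Poisson interval, and a black line at the median of 8 libraries. Myeloid cells hold Mt1 between 194 and 655 CPM, while 4 of 8 NK points of Mt1 are at 0 UMIs and 1 reaches 241 CPM.

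Myeloid cells had more Mt1 than CD8 T cells in 7 of 8 libraries, by 2.40 ± 0.49 (edgeR with the library as a block, adjusted p = 6.62e-05), and more Slc30a1 in 8 of 8, by 2.39 ± 0.24 (adjusted p = 3.11e-10). The exception for Mt1 was PD1d/IL-2v/IL-33 on day 12, with 221 CPM in myeloid and 262 CPM in CD8 T cells. Mt2 was measured at −0.04 ± 0.48 (adjusted p = 0.95). The background is wide here, since 70.1% of 8685 genes were called in either direction between these classes. Metal genes of myeloid cells included higher copper transporters Slc31a2 (3.72), Atp7a (2.99) and Slc31a1 (2.71), the copper chaperone Atox1 (2.41) and the zinc importer Slc39a1 (2.2), and lower Slc39a4 (−2.90). In these lists 4 of 6 copper genes were higher, 4 of 9 zinc importers were higher and 2 lower, and of 4 other zinc exporters Slc30a7 was higher (0.85) and Slc30a9 lower (−0.59). NRF2 targets gave 6 of 8 higher, led by Hmox1 (6.34), which encodes heme oxygenase 1, and 1 lower. The hypoxia list gave 8 of 9 higher, and the glucocorticoid list 4 of 7 higher and 2 lower.

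CD4 T cells had more Mt1 than CD8 T cells in 6 of 8 libraries, by 1.34 ± 0.48 (adjusted p = 0.0424, edgeR), where 23.5% of genes were called. Their levels were 576 CPM for untransduced ACT at day 5 and 408 CPM at day 12, 240 CPM for PD1d/IL-2v ACT, 83.8 CPM for PD1d/IL-33 ACT and 38 CPM for non-treated tumors. For PD1d/IL-2v/IL-33 ACT they were 469, 169 and 83.5 CPM at days 5, 12 and 26, so CD4 T cells fell below CD8 T cells only in that group's day 12 library and in non-treated tumors. The call was lost when either untransduced library, PD1d/IL-2v ACT, or day 5 or day 26 of PD1d/IL-2v/IL-33 ACT was left out (1.11 to 1.34, adjusted p = 0.0766 to 0.142), and with DESeq2 (1.27, adjusted p = 0.150). Mt2 was measured at 0.66 ± 0.45 (adjusted p = 0.323) and Slc30a1 at −0.06 ± 0.35 (adjusted p = 0.945). Mt3 was higher in CD4 T cells by 1.11 ± 0.30 (adjusted p = 0.00593), of 9 zinc importers Slc39a4 was higher (1.07), of 4 zinc exporters Slc30a9 was lower (−0.45), and of 6 copper genes Slc31a2 was higher (0.94) and Cox17 lower (−0.35). In the hypoxia list 5 of 9 genes were higher, led by Egln3 (2.33), in the glucocorticoid list 2 of 7 and among NRF2 targets 1 of 8.

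NK cells had less Mt1 than CD8 T cells in 8 of 8 libraries, by −1.74 ± 0.58 (adjusted p = 0.0231, edgeR), and less Mt2, by −1.94 ± 0.60 (adjusted p = 0.0136, lower in 7 of 8), where 29.1% of genes were called. Mt1 had 0 UMIs in NK cells of non-treated tumors, untransduced ACT at day 12, PD1d/IL-33 ACT and PD1d/IL-2v/IL-33 on day 26, which allows up to 12.1, 18.5, 11.3 and 11.9 CPM. It lay at 14.0 CPM for untransduced ACT at day 5, 2.14 CPM for PD1d/IL-2v ACT and 33.3 CPM for PD1d/IL-2v/IL-33 on day 5. PD1d/IL-2v/IL-33 on day 12 stood apart with 241 CPM (214 to 270), from 291 UMIs in 28 of 132 cells, of which 10 cells held 84.9%. Without that library the differences were −3.19 for Mt1 and −3.99 for Mt2. The call for Mt1 was lost without PD1d/IL-2v ACT, PD1d/IL-33 ACT, day 5 of PD1d/IL-2v/IL-33 ACT or day 5 of untransduced ACT (−1.50 to −1.62, adjusted p = 0.0508 to 0.0900), and that for Mt2 without either of those day 5 libraries (−1.50 and −1.71, adjusted p = 0.0820 and 0.0674).

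The NK cells of PD1d/IL-2v/IL-33 on day 12 that were positive for a metallothionein after thinning were 16 of 132, with a median of 17872 UMIs against 6061 in the negative ones. Ncr1, a receptor that defined the gate, was lowest in this library, at 290 CPM against 327 to 1023 CPM in the other 7, and 82.6% of its gated cells held a UMI of the NK marker Klrb1c, against 78.0% to 96.1%. Both positive and negative cells expressed Klre1, at 348 and 505 CPM. The part of depth and of doublets in the Mt1 level of these cells was not tested. Slc30a1 in NK cells was measured at 0.11 ± 0.32 (adjusted p = 0.846), Mtf1 at 0.12 ± 0.15 (adjusted p = 0.717), and Mt3 had 1 UMI in all NK and 2 in all myeloid cells, against 430 in CD8 T and 167 in CD4 T cells. Among metal lists, Slc30a9 (−0.45) and Cox17 (−0.58) were the genes called, both lower, of 4 zinc exporters, 9 zinc importers and 6 copper genes. In NK cells 1 of 9 hypoxia genes was higher and 4 were lower. Of 8 NRF2 targets 1 was higher and 2 lower, and of 7 glucocorticoid genes 2 were higher.

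Mt2 made up a smaller share of the metallothionein UMIs in myeloid cells than in T cells. A 5′ assay counts a transcript once whatever its length, so the share of Mt2 in the sum of Mt1 and Mt2 was taken per class without a length correction, and how reads common to these similar genes were assigned was not tested. The pooled share was 16.4% in CD8 T cells (15.3 to 17.6, 651 of 3964 UMIs), 11.2% in CD4 T cells (9.86 to 12.8), 11.7% in NK cells (8.86 to 15.1) and 3.52% in myeloid cells (3.06 to 4.03), with exact Clopper-Pearson intervals. Intervals of pooled shares take each UMI as independent, so they do not cover the spread between cells or libraries. Per library the share ran from 8.88% to 25% in CD8 T cells outside non-treated tumors, which had 0 of 20, and from 0% to 5.10% in myeloid cells outside non-treated tumors, which had 13.6%. The share was lower in myeloid than in CD8 T cells in 7 of 8 libraries, by a mean of 9.86 percentage points (means 4.36% and 14.2%, two-sided exact sign-flip permutation test, p = 0.0469, where the smallest possible p is 0.00781). Without non-treated tumors, where it was reversed, the mean difference was −13.2 points over the other 7, for which no test is given because the library was left out for its sign. For CD4 against CD8 T cells the mean difference was −4.55 points (lower in 6 of 8, exact permutation p = 0.0469). The Benjamini-Hochberg adjustment over these 2 comparisons leaves both permutation p-values with all libraries at 0.0469, because they are equal. A stricter correction for 2 tests was not applied, and the tests were added after the shares had been seen. With and without Pdcd1, CD8 T cells had pooled shares of 16.4% (15.2 to 17.6) and 16.7% (13.4 to 20.6).

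**Figure D4:**
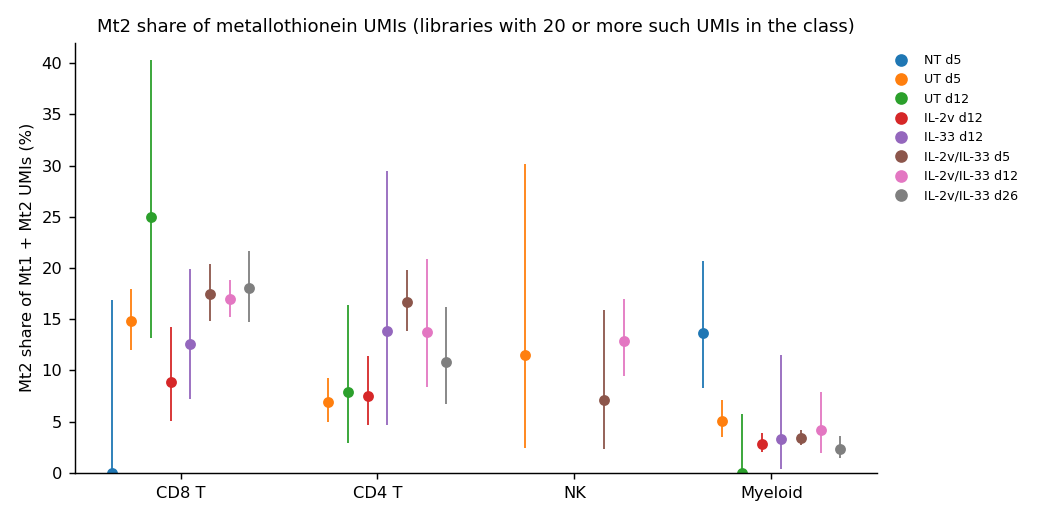
Share of Mt2 in the UMIs of Mt1 and Mt2 (percent, vertical axis) by gated class, with 1 point per library that had 20 or more such UMIs in the class, and exact 95% binomial intervals (NT, non-treated; UT, untransduced; d, day). Myeloid points lie at or below 5.10% except that of non-treated tumors at 13.6%, and CD8 T points lie between 8.88% and 25% except that of non-treated tumors at 0%.

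Mt2 was seen more often in cells with Mt1 than in cells without. Without thinning, 209 of 243 CD8 T cells with Mt2 (86.0%) also had Mt1, and Mt2 was present in 33.2% of cells with Mt1 and 0.92% of cells without. After thinning every cell to 2000 UMIs, Mt2 was present in 16.4% of the 281 cells with Mt1 (12.2 to 21.2) and 1.06% of the others (0.77 to 1.43). Of the 89 cells with Mt2, 46 (51.7%) also had Mt1. Thinning sets 1 depth for detection, but cells with either gene were still deeper before it in the libraries tested below. The thinned share among Mt1 cells was 24.7% after PD1d/IL-2v/IL-33 on day 12, 23.4% at day 5 and 1.89% (1 of 53 cells, 0.05 to 10.1) at day 26. At day 26 cells without Mt1 gave 0.83% (0.48 to 1.35), an overlapping interval, and 1 of 17 cells with Mt2 (5.88%) had Mt1. Without thinning, 37 of 135 day 26 cells with Mt1 had Mt2 (27.4%, 20.1 to 35.7), against 0.87% of those without (0.50 to 1.41). The intervals of day 26 therefore overlapped only after thinning. In the other classes, thinned shares were 19.3% against 0.71% in CD4 T cells, 15.4% against 0.08% in NK cells and 6.50% against 0.28% in myeloid cells. Slc30a1 was seen in 7% of CD8 T cells with Mt1 and 2.44% of those without, but in 1.42% and 1.01% after thinning.

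CD8 T cells with a metallothionein UMI also differed in the rest of their transcriptome. A cell counted as positive with at least 1 UMI of Mt1 or Mt2 after thinning, which gave 324 positive and 3999 negative cells, and the 6 libraries with at least 10 cells on both sides entered the test, leaving out non-treated tumors and untransduced ACT at day 12 with 3 positive cells each. Of 8056 genes tested, 689 (8.55%) were called in either direction, 284 higher and 405 lower, and Mt1 and Mt2, which the split used, are 2 of the higher ones and are not read. Positive cells were deeper, with medians of 12112 against 7371 UMIs after PD1d/IL-2v/IL-33 on day 12 and 5992 to 11738 against 5081 to 8078 in the other 5 libraries. Without PD1d/IL-2v/IL-33 on day 26 the counts were 159 higher and 233 lower, without its day 5 library 157 and 261, and within the cells with a Pdcd1 UMI 55 and 107. The 55 again include Mt1 and Mt2 (53 without them). When a cell counted as positive by all its UMIs, without thinning, 1035 were higher and 969 lower, so neither the number of calls nor their balance was stable.

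Among genes that moved the same way in all 6 libraries, the 10 highest log2 differences were those of Foxp3, Sv2c, Maf, Serpine2, Cdkn2a, Havcr2, AA467197, Ifitm2, Adamts14 and Tacc2. Foxp3, the transcription factor of regulatory T cells, was higher by 2.18 ± 0.37 (adjusted p = 0.000547), from 6.42 to 34.0 CPM on average, and 19 of 324 positive cells had a UMI of it against 52 of 3999 negative ones. The shares of cells with a Foxp3 UMI after thinning were 3.09% and 0.75%. The gate asks only that no Cd4 UMI was seen, and whether CD4 T cells without a detected Cd4 UMI entered it was not tested. Maf, a transcription factor expressed in dysfunctional and regulatory T cells, was higher by 1.61 ± 0.25 (adjusted p = 0.000201) and Havcr2, which encodes the inhibitory receptor TIM-3, by 1.33 ± 0.16 (adjusted p = 1.76e-05). Sv2c was higher by 1.69, the protease inhibitor gene Serpine2 by 1.56, the cell cycle inhibitor gene Cdkn2a by 1.46 and the interferon-induced Ifitm2 by 1.32. Adamts14 (1.32) and Tacc2 (1.27) were the least stable, since both lost their call without PD1d/IL-2v/IL-33 on day 26 (1.05, adjusted p = 0.0536, and 0.91, adjusted p = 0.146), and Tacc2 also without untransduced ACT at day 5 (1.23, adjusted p = 0.0554). Within cells with Pdcd1, Maf (1.29), Serpine2 (1.06), Cdkn2a (1.17) and Havcr2 (0.83) were higher as well, and Foxp3 was measured at 1.37 (adjusted p = 0.194).

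The 5 lowest were Ifit1 (−2.90 ± 0.33), Ifit3 (−2.74 ± 0.30), Tcf7 (−2.72 ± 0.18), Pou6f1 (−2.50 ± 0.42) and Pde2a (−2.36 ± 0.28), with adjusted p between 1.27e-09 and 0.000490. Ifit1 and Ifit3 are interferon-induced genes and Tcf7 encodes TCF1, the transcription factor of naive, memory and precursor T cells. Tcf7 averaged 14.6 CPM in positive and 110 CPM in negative cells, and 11.7% against 41.9% of the cells had a UMI of it (3.09% and 21.1% after thinning). It was also lower within cells with Pdcd1, by −2.51 ± 0.23 (adjusted p = 4.70e-07).

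The lists of cell state moved together with this. All 6 naive and memory genes were lower, among them S1pr1 (−2.04), Klf2 (−1.60) and Il7r (−1.2). Of 8 inhibitory receptors 6 were higher, Havcr2 and Ctla4 (1.04) most, then Entpd1 (0.86), Pdcd1 (0.78), Lag3 (0.75) and Tigit (0.60). Of 7 cytotoxic genes 4 were higher, granzymes Gzmf (2.55), Gzmc (1.75) and Gzmb (0.97) and the perforin gene Prf1 (1.2), while Ifng was measured at 0.08 ± 0.21 (adjusted p = 0.88). Gzmf and Gzmc were not higher in each of the 6 libraries, so they are absent from the highest genes named above. Gzmb had a UMI in 62.0% of positive and 33.2% of negative cells after thinning. Of 10 cell cycle genes Tk1 (1.11) and Pcna (0.43) were higher. Medians of these lists were −1.40 for naive and memory, 0.76 for inhibitory, 0.97 for cytotoxic and 0.37 for cell cycle genes, against −0.00325 over all genes tested.

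Within cells with Pdcd1 fewer genes were called in all, 53 higher and 107 lower of 6869 tested without Mt1 and Mt2. Over all CD8 T cells 282 were higher and 405 lower of 8054. The list counts were smaller as well, with 4 of 6 naive and memory genes lower and 2 of 8 inhibitory receptors higher (Havcr2 and Ctla4, 0.65). Of 7 cytotoxic genes 2 were higher within cells with Pdcd1 (Gzmb, 0.94, and Prf1, 0.95), and no cell cycle gene was called. Gzmc was measured there at 1.22 ± 0.34 (adjusted p = 0.0624), and Gzmf was not among the genes called. Of the genes listed as markers of other cells, Fcer1g was higher in positive CD8 T cells (1.10, adjusted p = 0.00012) and within those with Pdcd1 (1.45). The paper reports this gene as higher in its Gzmc-expressing CD8 T cells than in its exhausted ones. Tyrobp was higher within those with Pdcd1 (1.41, adjusted p = 0.017) and measured at 0.30 over all CD8 T cells. Of 8 myeloid markers only these 2 passed the low-count filter, Lyz2 had a UMI in 8.02% of positive and 6.68% of negative cells (1.54% and 1.73% after thinning), and none of 3 tested NK markers was called. The part of myeloid RNA in the result was not tested beyond these values.

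**Figure D5:**
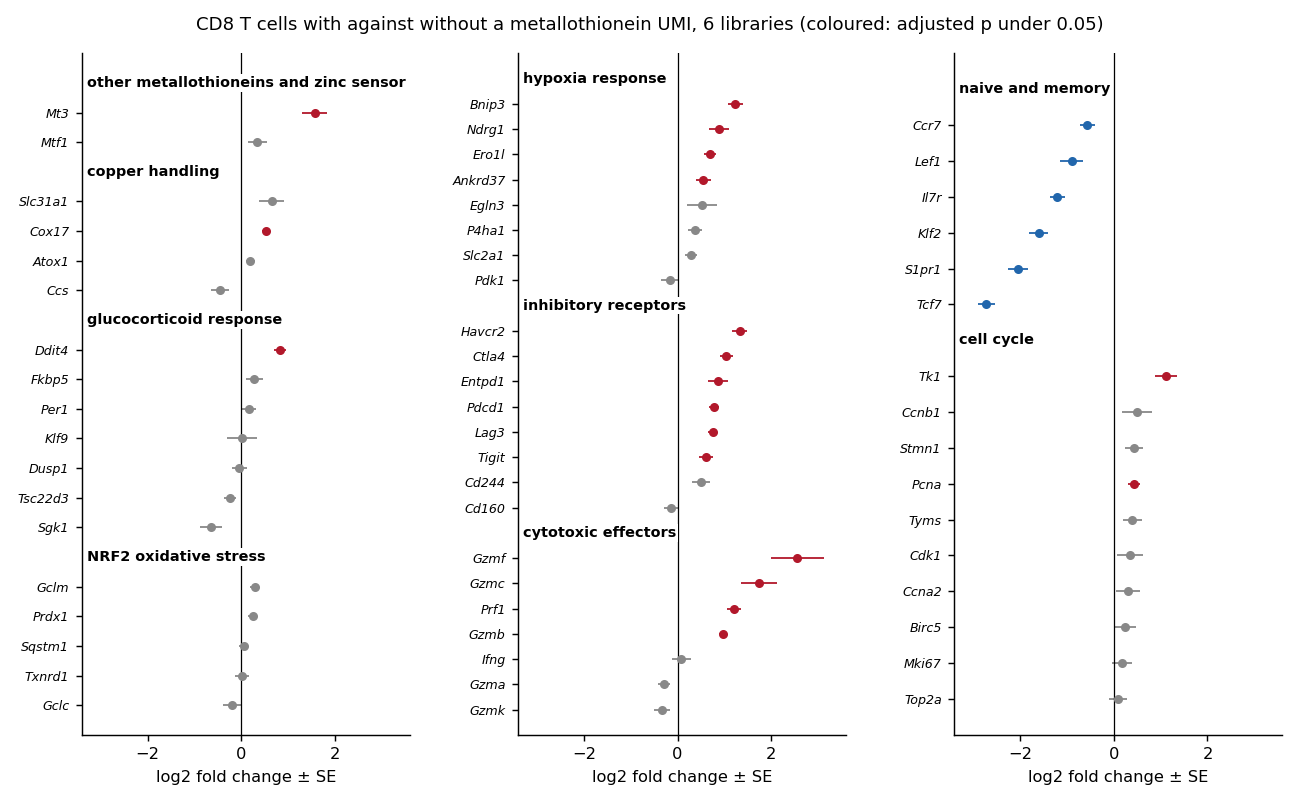
Log2 difference between metallothionein-positive and metallothionein-negative CD8 T cells (horizontal axis, point) with its standard error (line), from edgeR with 6 libraries as blocks, for the tested genes of 9 lists. Red and blue points passed an adjusted p of 0.05, higher and lower, and grey points did not; all 6 naive and memory genes lie below 0 and 6 of 8 inhibitory receptors passed the test above it.

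Among genes of metal handling and of the known inducers, Mt3, Ddit4, Cox17 and several hypoxia genes were higher in positive cells. Mt3 was higher by 1.57 ± 0.27 (adjusted p = 0.000527, higher in 5 of 6 libraries) and within cells with Pdcd1 by 1.2, whereas Mtf1 was measured at 0.33 ± 0.20 (adjusted p = 0.353). None of 4 zinc exporters and 8 zinc importers was called by edgeR (0 and 1 at an unadjusted p under 0.05), and Slc30a1 did not pass the low-count filter. Of 4 copper genes Cox17 was higher (0.52). Of 7 glucocorticoid-induced genes Ddit4 was higher (0.82), which hypoxia also induces, and Fkbp5 and Tsc22d3 were measured at 0.28 and −0.25. None of 5 NRF2 targets was called (2 at an unadjusted p under 0.05). In the hypoxia list, with a median of 0.53, 4 of 8 genes were higher, Bnip3 (1.23), Ndrg1 (0.89), Ero1l (0.70) and Ankrd37 (0.55), and Bnip3 (0.88) was higher within cells with Pdcd1 as well.

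The genes whose level ran most like that of Mt1 were named by Pearson's r of log2(CPM + 10), as a description across points that share libraries and depth. Over 40 points of library and class, among 11783 genes, they were Alcam (0.82), Slc16a3 (0.81), which encodes a lactate transporter, Fabp5 (0.78), Txn1 (0.78) and Gapdh (0.78). Mt2 ranked 11 (0.76) and Slc30a1 190 (0.61), and Mtf1 had r = −0.11. Over the 8 libraries in CD8 T cells, among 10391 genes, they were Mga (0.94), Srxn1 (0.91), Mt2 (0.91), Zmiz1 (0.90) and the glucose transporter gene Slc2a3 (0.90), with Slc30a1 at 0.60. This r compares the shape of a pattern and not its size. Mga was nearly flat there, at 25.7 to 32.7 CPM, while Mt1 ran from 32.9 to 262 CPM, and Srxn1 was rare, at 0 to 8.81 CPM.

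The split by a metallothionein UMI was also made in myeloid cells, where genes of hypoxia were higher in positive cells. In 5 libraries, 377 genes were higher and 316 lower of 7173 tested (9.66%), by edgeR. Without Mt1 and Mt2, which the split used, 375 of 7171 were higher. Of 9 hypoxia genes 8 were higher, among them Egln3 (1.75), Bnip3 (1.55), Ero1l (1.49), Vegfa (1.47), Ndrg1 (1.44) and the glucose transporter gene Slc2a1 (1.07). Of 8 NRF2 targets 3 were higher, Hmox1 (1.13), Srxn1 (0.79) and Prdx1 (0.45), and of 9 zinc importers Slc39a14 (1.13). The complement genes C1qa (1.62) and C1qb (1.45) and Cd68 (0.42) were higher and Csf1r (−0.40) was lower. Chosen after their values were seen, Arg1 was higher by 1.80 and Timp1 by 2.55. Slc30a1 was measured at 0.40 ± 0.26 (adjusted p = 0.419) and Mtf1 at 0.09 ± 0.24. Positive cells had medians of 6125 to 12745 UMIs against 6300 to 9295 in negative cells of these libraries.

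In CD4 T cells, with 5 libraries, 99 genes were higher and 97 lower of 5232 tested (3.75%). Leaving out Mt1 and Mt2, which the split used, 97 of 5230 were higher. Bnip3 (1.71), Egln3 (1.28), Ndrg1 (1.14) and Slc2a1 (0.82) made 4 of 8 hypoxia genes higher. Mt3 (1.64), Ddit4 (1.22), Ctla4 (1.26), Lag3 (1.06) and Gzmb (1.26) were higher, whereas Tcf7 (−3.03), Ifng (−3.42), Gzmk (−1.87), S1pr1 (−1.86), Klf2 (−1.49) and Pdcd1 (−0.81) were lower. Pdcd1 was thus lower in positive CD4 T cells and higher in positive CD8 T cells, a difference that was not tested. In NK cells only PD1d/IL-2v/IL-33 on day 12 had enough positive cells, so no test was made.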

How the data were processed

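Single-cell RNA-seq (10x Genomics 5′ kit) of CD45+ cells was analysed in 8 libraries. Per the submitters' processing notes, reads were handled with bcl2fastq and Cell Ranger 2.2.0 on GRCm38, whereas the study's methods name a later Cell Ranger release. The authors deposited the UMI counts of the aggregated libraries without normalization. Whether reads were subsampled on aggregation is not given in the sources used here.

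Cells were kept with 500 to 6000 genes, 2000 to 40000 UMIs, 5% to 60% ribosomal and under 10% mitochondrial UMIs, as in the study's methods (86 ribosomal protein and 13 mitochondrial genes). Gates used at least 1 UMI over Cd3d, Cd3e and Cd3g with Cd8a or Cd8b1 and no Cd4 (CD8 T), or with Cd4 and no Cd8 (CD4 T), Ncr1 without CD3 or coreceptors (NK), none of these holding Csf1r, Cd68 or Itgam, and at least 3 UMIs over Lyz2, Csf1r, Cd68 and Itgam without CD3, Ncr1 or Cd79a (myeloid).

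Levels are UMIs per 1000000 UMIs, with exact 95% Poisson intervals, and shares have Clopper-Pearson intervals. Library ratios used 10 CPM added to both and genes with at least 50 UMIs. Within libraries, UMIs summed per library and side (at least 10 cells) were tested with edgeR 4.0.16 (TMM, filterByExpr, quasi-likelihood F test, library as a block, Benjamini-Hochberg adjustment, threshold 0.05) in R 4.3.3. CD4 T, NK and myeloid cells entered 1 fit with CD8 T cells. The block pairs both sides of a library, since they come from the same sorted sample. Thinning to 2000 UMIs used seed 1. The remaining steps ran in Python 3.11.15 (scipy 1.17.1, numpy 2.4.6, matplotlib 3.10.9, pandas 2.3.3), and the tests were checked on simulated data.

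Named genes were the members, the genes of the lists, and the 10 highest and 5 lowest log2 differences called and of 1 sign in every library, and the 5 genes most like Mt1. Members and lists were chosen with earlier results of these data known. A gene of the naive and memory list is not reported here, and the counts and medians of that list leave it out. Alternatives were DESeq2 1.42.0, other filters, gates, pseudocounts (1 CPM) and thinning, and each library left out. Precision was lowest in the libraries of 400 barcodes.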

Additional observations from a re-analysis of the deposited data

Results flagged for a closer look

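The ratio of Mt1 between libraries ran in opposite directions in different classes, with 1 library each, so the difference was not tested. Between PD1d/IL-2v/IL-33 and PD1d/IL-2v ACT at day 12, the log2 ratio was 2.66 in CD8 T and 4.37 in NK cells but −0.93 in myeloid cells. Between days 12 and 5 of PD1d/IL-2v/IL-33 ACT it was 2.54 in NK cells but −1.42 in CD4 T and −1.52 in myeloid cells.

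Mt1 was also present in the cells of no gate, above the 83.9 CPM of non-treated tumors (61.6 to 112). There it was 169 CPM for untransduced ACT at day 5, 292 CPM at day 12, 169 CPM for PD1d/IL-2v ACT, and 156 and 196 CPM for PD1d/IL-2v/IL-33 on days 5 and 12. PD1d/IL-33 ACT (80.9 CPM) and day 26 (108 CPM) were not above that interval.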

How the results depend on the processing

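Each ratio between libraries rests on 1 library a side, and ratios to untransduced ACT at day 12 moved most. For Mt1 in CD8 T cells, the ratio of PD1d/IL-2v/IL-33 against untransduced ACT at day 12 (1.07) was 2.15 under the later experiment's cell filter, 2.80 without the top 5% of cells by UMIs, 1.91 with equal weight per cell and 3.24 without the cell of most Mt1 UMIs. PD1d/IL-2v (−1.60) was −0.0375, 0.37, −0.37 and 0.48 under these 4 and −0.76 after thinning, and PD1d/IL-33 (−0.86) was 1.21, 1.14, 0.34, 1.24 and −0.23. Mt2 turned to 0.11 for PD1d/IL-2v under the later filter, and for PD1d/IL-33 to 0.57 under it, 0.45 without the top 5%, 0.21 after thinning and 0.39 without the top cell. Under the later filter, PD1d/IL-2v/IL-33 was 2.19 against PD1d/IL-2v and 0.94 against PD1d/IL-33, PD1d/IL-33 against PD1d/IL-2v was 1.248, PD1d/IL-2v/IL-33 against untransduced ACT at day 5 was −0.0809, untransduced ACT at day 12 against day 5 was −1.97, and PD1d/IL-2v/IL-33 at day 12 against day 5 was 0.26 and at day 26 against day 12 −2.25. Without the top 5% of cells, these values were 2.43 and 1.66, then 0.0911 at day 5, −2.30 for untransduced ACT over time and −2.74 for day 26, and untransduced ACT against non-treated tumors was 2.21. Equal weight per cell gave 2.29, 1.58, −1.11 and 0.29, and thinning 2.31, −0.75 and 0.21, for PD1d/IL-2v/IL-33 against PD1d/IL-2v, against PD1d/IL-33 (equal weight alone), and for untransduced and PD1d/IL-2v/IL-33 on day 12 against day 5. Without the top cell, untransduced ACT was 2.13 against non-treated tumors and −2.27 at day 12 against day 5. A pseudocount of 1 CPM gave 2.95 against PD1d/IL-2v and −2.89 for day 26, TMM scaling 0.64 for day 12 against day 5, and all barcodes −2.44 for day 26, at 40.02 CPM. Without thinning, 33.2% of Mt1-positive cells held the partner gene.

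Among the edgeR contrasts, Mt1 in CD4 against CD8 T cells lost its call with DESeq2 (1.27), without a library block (no replicate block, 1.09), with the 2-UMI gate (1.21) and without both 400-barcode libraries (1.37), and spanned 1.11 to 1.51 with 1 library left out. In NK cells it lost its call without the block (−1.23) and without both small libraries (−1.57), and spanned −3.19 to −1.50. Slc30a1 in CD4 T cells was 0.0466 without TMM and −0.32 to 0.12 over left-out libraries (0.01, 0.11 and 0.12 turned), in NK cells −0.16 to 0.36, and Mt2 in myeloid cells was 0.45 with DESeq2 and −0.40 to 0.32. For Pdcd1 the unblocked values were 2.35 for Mt1 and 2.40 for Mt2, and with Pdcd1 detected after thinning Mt2 was 0.57 (adjusted p = 0.133). Of genes in positive against negative CD8 T cells (284 higher, 405 lower), 7 and 45 passed without the block, 1035 and 969 when positive was set on all UMIs, 55 and 107 within cells with Pdcd1, 263 were lower with DESeq2 and 618 without a filter, and 157 to 267 higher and 233 to 341 lower with 1 library left out. Leaving out the top cell, both small libraries, or cells without Pdcd1 was chosen after seeing the data. The cause of these changes was not tested. The libraries of 400 barcodes are limited most by their few cells, with 68 CD8 T cells in non-treated tumors and 42 in untransduced ACT at day 12.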

Other observations

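The 2879 barcodes that failed the cell filter held Mt1 at 250 CPM, against 172 CPM in the 12821 passing cells, Mt2 at 36.4 against 17.5 CPM and Slc30a1 at 8.92 against 7.61 CPM.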
